A study of Mus musculus with 20 samples.

Results

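The genes of the splicing machinery were examined in mouse kidneys that had, or had not, gone through ischemia and reperfusion. A gene was a member when its name on the array began with Hnrnp or Hnrp (the heterogeneous nuclear ribonucleoproteins, hnRNPs), Sfrs or Srsf followed by a digit (the serine/arginine-rich, or SR, splicing factors and their partners), Sf3a or Sf3b (the branch point complexes of the U2 particle), Snrp (proteins of the small nuclear ribonucleoproteins, snRNPs) or Prpf (pre-mRNA processing factors). This name rule found 72 genes, measured by 150 probes, among 27827 gene names and 41174 probes. The array uses older symbols, and 21 of the 72 now carry another name, so that Sfrs1 is today's Srsf1, Sfrs5 is Srsf5, Sfrs18 is Pnisr, Sfrs2ip is Scaf11 and Hnrpdl is Hnrnpdl. RNA came from whole kidneys of C57BL/6 mice in 5 groups of 4 arrays. Control mice had no surgery, IRI mice had both renal pedicles clamped for 45 min and were killed 6 h after blood flow returned, and IRI+Hemin mice were treated in the same way after an injection of hemin at 25 mg/kg given 24 h before surgery. IPC+IRI mice had a shorter period of clamping (ischemic preconditioning) a week before the same ischemia, and Hemin mice received hemin without surgery. The controls were therefore unoperated mice and not sham-operated ones.

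Splicing removes introns from the primary transcript. The snRNPs, each built on a ring of Sm proteins around a small nuclear RNA, recognise the splice sites and the branch point and form the catalytic spliceosome, helped by PRPF proteins. SR proteins usually favour, and many hnRNP proteins oppose, the use of nearby splice sites, so that the balance between them sets which exons are kept. Several of these genes also make alternative transcripts of their own that carry premature stop codons or other ends, and hnRNP D and its relatives bind AU-rich elements that control the decay of messenger RNAs of inflammation.

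Levels are given as log2 expression, where 0 is the 75th percentile of the array and 1 unit is a doubling of the signal. Of the 72 members, 71 were above background on all 20 arrays and were tested in every comparison, and 53 of them lay above the 75th percentile of the array in Control kidneys. The remaining member, Hnrnpul2, was not well above background and was not tested. A member was called when its adjusted p was below 0.05 in a linear model over all genes. The design limits what may be compared. A slide held the 4 arrays of a single group, and differences between slides and between groups cannot be told apart. The arrays were scanned over 3 days, the first for Control with IRI, the second for IRI+Hemin and the last for Hemin with IPC+IRI. All groups that received hemin or preconditioning were thus scanned later than the others, and of the comparisons below IRI against Control is the one made within a day. The probe for 18S ribosomal RNA (Rn18s) read 5.14, 7.74, 4.55 and 4.95 in Control, from 3.16 to 6.11 in IRI and from 7.23 to 8.05 in the groups scanned later, so Control replicate 2 read like the later arrays. Leukocyte markers (10 of 12 listed genes were on the array) summed to between 2.17 and 2.39 times the 75th percentile in Control, 5.23 and 10.2 in IRI, 4.29 and 12.2 in IRI+Hemin, 7.83 and 22.2 in IPC+IRI, and 2.14 and 3.25 in Hemin (the B cell marker Cd79a was near background outside Control), while the 5 proximal tubule markers, all above background in every group, summed to 344 to 388 in Control, 259 to 359 in IRI, 201 to 269 in IRI+Hemin, 205 to 263 in IPC+IRI and 292 to 328 in Hemin. The part of these shifts in the results below was not tested. In whole-kidney RNA, fewer cells of a type and less RNA per cell cannot be told apart.

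IRI was compared with Control to ask what ischemia and reperfusion did to the transcripts of the splicing machinery. More members were higher than lower: 18 of 71 were higher and 6 were lower in IRI, and the median member changed by 0.10 on the log2 scale. Among all 17711 genes tested the balance ran the other way, with 17.1% higher and 33.9% lower and a median change of -0.17. At least 2-fold changes were seen in 2 members upward (background 5.97%) and 1 downward (background 14.3%). The calls are given by family, to be read beside 17.1% higher and 33.9% lower among all genes. Differences between families were not tested. The SR group held 9 higher and 5 lower of 19, the hnRNPs 5 higher and 1 lower of 19, and the PRPF genes 2 higher of 13, whereas the SF3A/SF3B group had 1 higher of 8 and the snRNP proteins 1 higher of 12. Without scaling between arrays 12 members were called, 11 of them higher. With normexp background correction 15 were called, and the median was 0.07 for members and 0.02 over all genes. Of all genes called with normexp 56.2% were higher, so the opposite balance among all genes was not seen there. With the deposited log2 values, centred on each array, the split became 8 higher and 10 lower. The member median was then -0.13 and the median over all genes -0.33. Of the 24 called members, 5 kept their call in all 19 alternatives tried for each: Hnrpdl, Hnrnpd, Hnrnpa1, Sfrs5 and Sf3b3. Of the 20 called members with several tested probes, 6 had every probe called in the direction of the gene, 12 had at least 1 probe that was not called and 2 had a probe called the other way.

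**Figure D1:**
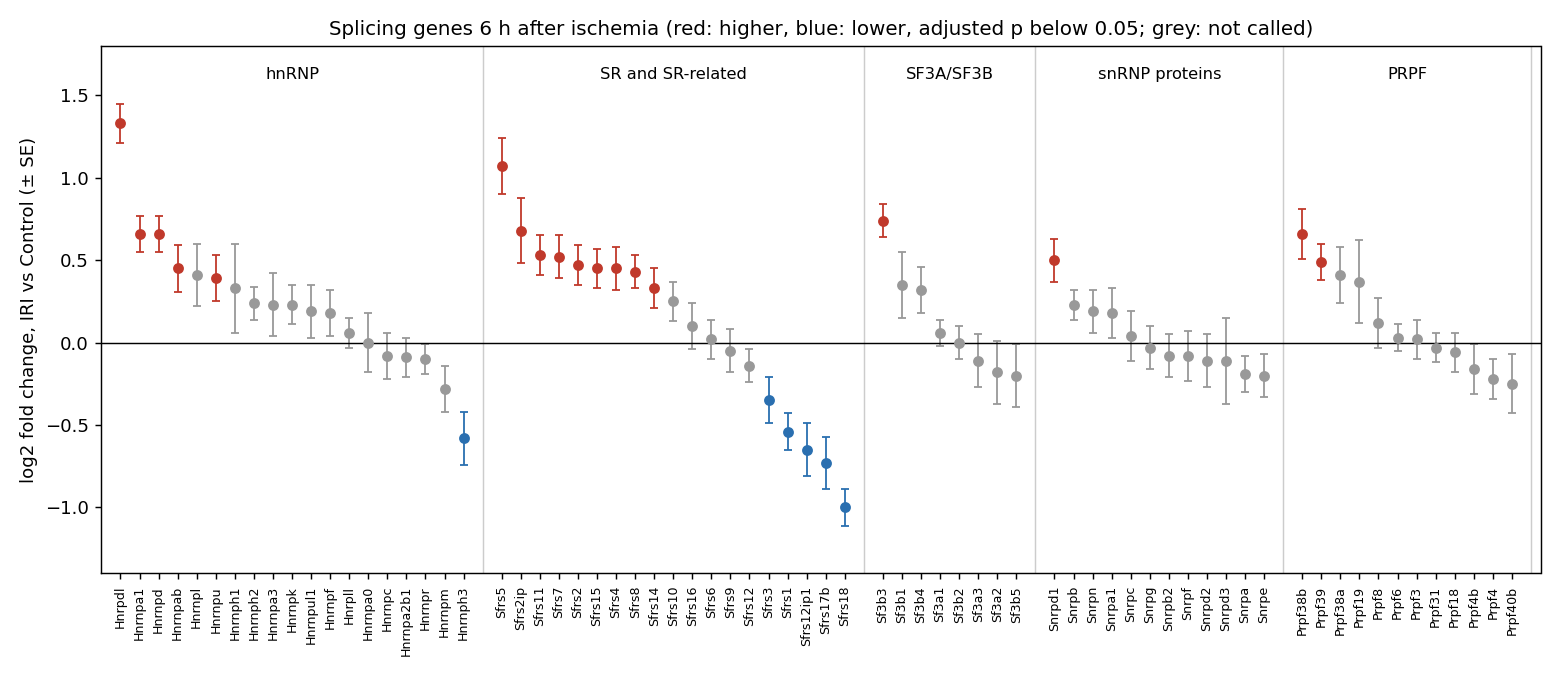
Log2 fold change in IRI against Control (vertical axis, with its standard error) for 70 of the 71 members tested, ordered by size within each family. Red points are the 18 members called higher, blue points the 6 called lower and grey points those not called; the snRNP proteins lie between -0.20 and 0.50 and the SR group between -1 and 1.07.

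The largest rise among the members belonged to Hnrpdl, an RNA-binding protein closely related to hnRNP D. Its log2 expression was 0.91, 0.85, 0.67 and 0.71 on the Control arrays and 2.04, 2.16, 2.16 and 2.11 on the IRI arrays. No IRI array came near a Control array, and the change was 1.33 ± 0.12 on the log2 scale (SE), or 2.52-fold (adjusted p = 2.06e-07). Hnrnpd (AUF1), which binds AU-rich elements, read 2.59, 2.07, 2.38 and 2.59 in Control and 3.20, 2.99, 3.12 and 2.96 in IRI. The groups did not overlap and the rise was 0.66 ± 0.11 (adjusted p = 0.000121). Hnrnpa1, a repressor of splice sites, read 1.28, 1.38, 1.25 and 1.12 in Control against 1.99, 2.07, 1.90 and 1.73 in IRI, again without overlap, and rose by 0.66 ± 0.11 (adjusted p = 0.000121). Hnrnpab and Hnrnpu were also called higher (0.45 and 0.39), calls lost in 5 of 19 alternatives for the former and in 7 for the latter, which also changed sign with the deposited values (-0.23). The hnRNP that fell was Hnrnph3, of the H/F branch that binds G-rich sequence, at 2.46, 3.1, 2.41 and 2.39 in Control and 2.12, 2.14, 1.90 and 1.87 in IRI. It fell by 0.58 on the log2 scale (adjusted p = 0.00568). Control replicate 2 stood above the other Control arrays for this gene. Hnrnpk, an abundant C-rich binding protein, changed by 0.23 ± 0.12 and was not called (adjusted p = 0.118).

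Among the SR proteins, Sfrs5 (SRp40), an activator of exon inclusion, rose from 0.92, 1.43, 1.13 and 1.23 in Control to 1.91, 2.46, 2.06 and 2.57 in IRI. The lowest IRI array was above the highest Control array, and the change was 1.07 ± 0.17, or 2.10-fold (adjusted p = 6.12e-05). Sfrs2 (SC35), a classical SR protein of nuclear speckles, read 2.96, 2.46, 2.80 and 2.98 in Control and 3.38, 3.28, 3.34 and 3.09 in IRI, a rise of 0.47 ± 0.12 (adjusted p = 0.00239). Sfrs1 (ASF/SF2), the founding member of the family, moved the other way, from 1.38, 1.54, 1.51 and 1.56 to 1.04, 0.79, 1.01 and 0.98. It fell by 0.54 on the log2 scale without overlap between groups (adjusted p = 0.000651), so the SR proteins did not change in one direction. Sfrs18, a serine/arginine-rich protein of nuclear speckles that binds pinin, read 0.30, 0.33, 0.14 and 0.27 in Control and -0.53, -0.83, -0.77 and -0.83 in IRI. This was the largest fall of any member (-1 ± 0.11, adjusted p = 1.09e-06). Sfrs17b and Sfrs12ip1 fell by 0.73 (adjusted p = 0.000819) and 0.65 (adjusted p = 0.00287). Both calls were lost without scaling and with normexp, where Sfrs17b came to -0.09 (adjusted p = 0.837), and 1 of the 2 Sfrs17b probes was above background on 1 of the 4 IRI arrays. Sfrs2ip rose by 0.68 ± 0.20 (adjusted p = 0.00835), a call lost in 4 of 19 alternatives (0.26 with the mean of log2 values), and Sfrs11, Sfrs8, Sfrs4, Sfrs15 and Sfrs14 rose by between 0.33 and 0.53. Of these, Sfrs14 lost its call in 9 of 19.

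Within the core of the spliceosome few members changed. Sf3b3, a subunit of the complex that holds the branch point, read -0.20, 0.20, -0.05 and -0.10 in Control and 0.56, 0.92, 0.65 and 0.69 in IRI. Its groups did not overlap and it rose by 0.74 ± 0.10, or 1.67-fold (adjusted p = 1.07e-05). The rise lay on both probes for a cDNA clone (1.01 ± 0.19, adjusted p = 0.000271, and 1.04 ± 0.14, adjusted p = 8.82e-06), while the probe for the reference transcript changed by 0.28 ± 0.13 and was not called (adjusted p = 0.0953). Sf3b1, the largest subunit of that complex, changed by 0.35 ± 0.20 and was not called (adjusted p = 0.147). Of the snRNP proteins, Snrpd1, an Sm ring protein, rose by 0.50 ± 0.13 (adjusted p = 0.00322) and was -0.06 with the deposited values (adjusted p = 0.973), while Snrpa of the U1 particle (-0.19 ± 0.11), Snrpb of the Sm ring (0.23 ± 0.09, adjusted p = 0.05) and Snrpn, its neuronal and imprinted relative (0.19 ± 0.13), were not called. Prpf38b and Prpf39 rose by 0.66 ± 0.15 (adjusted p = 0.00153) and 0.49 ± 0.11 (adjusted p = 0.00106), each on 1 of 2 tested probes. For Prpf38b 1 probe rose by 0.77 ± 0.13 (adjusted p = 0.00012) and the other gave 0.05 ± 0.33 (adjusted p = 0.916). For Prpf39 1 probe rose by 1.01 ± 0.14 (adjusted p = 1.7e-05) and the other gave -0.24 ± 0.12 (adjusted p = 0.112). Averaging the log2 values of the probes ended both calls (0.41 and 0.23). Prpf8, the scaffold of the catalytic centre, changed by 0.12 ± 0.15 (adjusted p = 0.528).

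**Figure D2:**
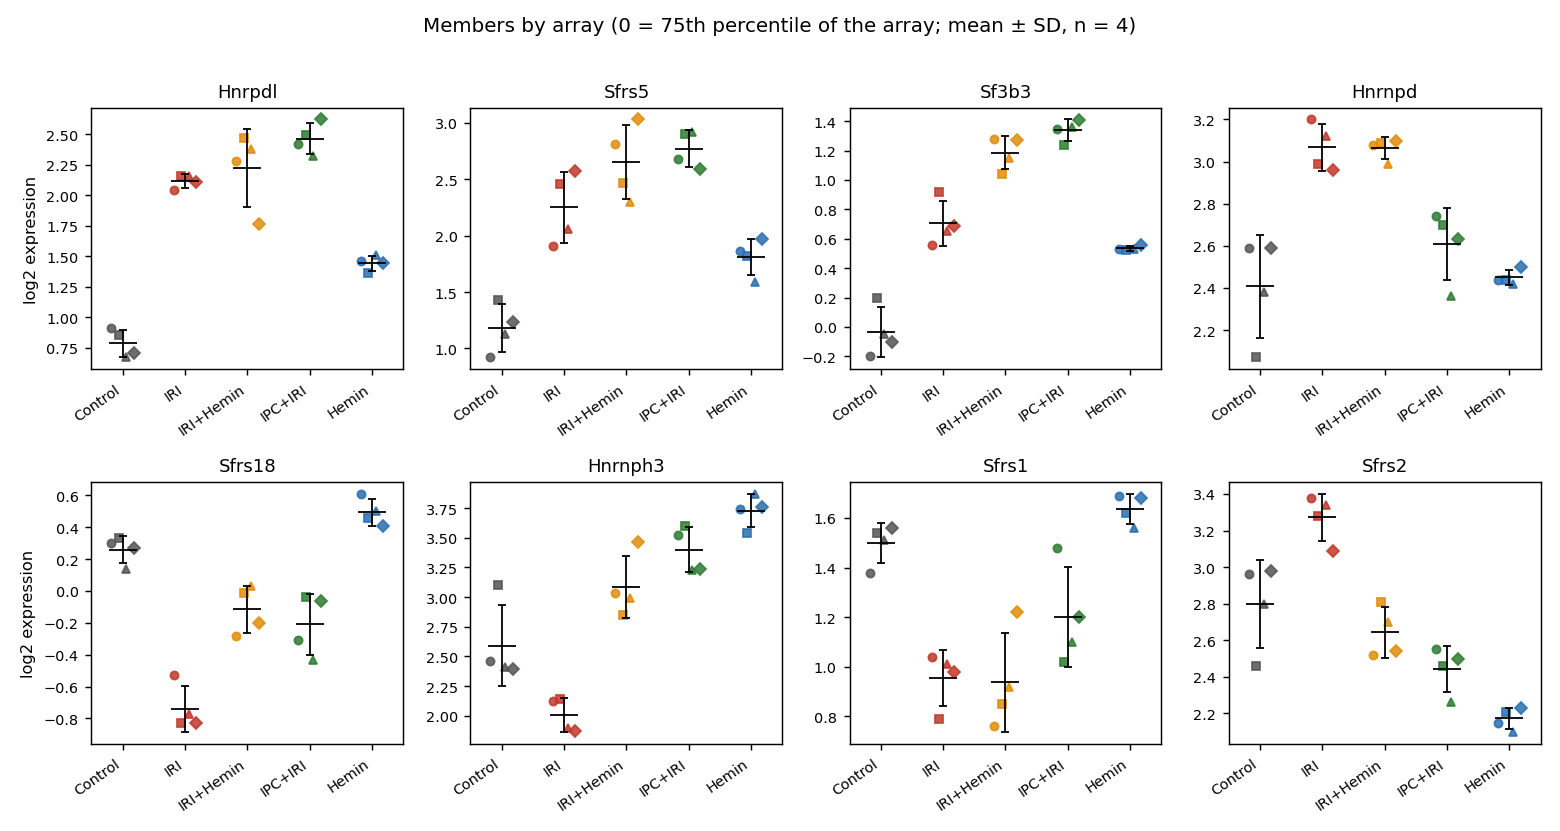
Log2 expression (vertical axis, scale set for each panel; 0 is the 75th percentile of the array) of 8 members in the 5 groups; each symbol is an array and the bars give the mean ± SD of 4. Hnrpdl runs from 0.67 to 0.91 in Control and from 2.04 to 2.16 in IRI, Sfrs18 is below 0 on all IRI arrays, and Sfrs2 is lower in Hemin than in Control.

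Several members carry more than 1 probe, and the probes of Sfrs7, Hnrpdl and Sfrs3 are described here as examples of probes that did not move together. Sfrs7 (9G8), an SR protein that also takes part in the export of messenger RNA, has 3 probes on the minus strand of chromosome 17 (build mm9), all assigned to the same reference transcript. In the direction of transcription they lie at chr17:80600700-80600759, chr17:80600660-80600719 and chr17:80600305-80600364, and the upstream pair overlap by 20 bases. A stretch of 30 bases is shown for each probe of the members below, to mark which piece of the transcript each value comes from; capitals mark AATAAA, the usual signal for polyadenylation.
Sfrs7 A_52_P649685: tctgtaaaattcacagcagtaaatattgtt
Sfrs7 A_52_P649683: tttttatttgacacgtttaAATAAAatgtt
Sfrs7 A_51_P466673: ggaattgtcaagcttagagggaccactgat
Hnrpdl A_52_P292693: taaaacagacccagtcacgggaagatcaag
Hnrpdl A_51_P476091: ctgggagagcaggaggtgtaaagaaaccat
Hnrpdl A_52_P283910: tcacatactgttagtaggtatagtatccaa
Sfrs3 A_52_P545451: ctggctgtgcataattgaatggtaacgtac
Sfrs3 A_51_P417016: ccagatgagatttaggtatcaatctattcc
The letters AATAAA were searched on both strands of all 41174 probes, each 60 bases long. They occur in 8.8% of them on either strand and in 4.78% on the strand of the probe, so a match is a description of where the probe lies and no evidence of a used site.

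The upstream pair of Sfrs7 probes was higher and the downstream probe lower in IRI. The middle probe, which holds AATAAA, read 1.52, 2.34, 1.81 and 1.5 in Control and 2.42, 2.67, 2.50 and 2.33 in IRI, a rise of 0.69 ± 0.15 in a fit of single probes (adjusted p = 0.0012), with 1 IRI array just below the highest Control array. The upstream probe rose by 0.68 ± 0.15 (adjusted p = 0.000896). The downstream probe, which begins beyond that signal, read -0.31, 0.06, -0.15 and 0.00 in Control and -1.24, -1.81, -1.51 and -1.24 in IRI, a fall of 1.35 on the log2 scale (adjusted p = 1.65e-06). On the arrays of the other groups the downstream probe read between -1.72 and -0.81 in IRI+Hemin and IPC+IRI and between -0.27 and -0.01 in Hemin. All 12 arrays of kidneys that had gone through ischemia were therefore below all 8 of those that had not. The share of all probes that separate in this way was not computed, and each group had its own slide. Against its own unoperated group, the downstream probe of IRI+Hemin fell by 0.85 relative to Hemin (adjusted p = 0.000277), whereas the upstream pair changed by 0.14 ± 0.15 and 0.23 ± 0.15 and were not called. Whether the probes differ in change from one another was not tested. The value for the gene, the log2 of the mean of its probes, a rise of 0.52 ± 0.13 (adjusted p = 0.00399), does not show this split, and it was 0.01 (adjusted p = 0.972) when the log2 values of the probes were averaged in place of their signals.

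For Hnrpdl the upstream probes carried the rise. They lie at chr5:100466848-100466907 and chr5:100463956-100465134 on the minus strand, the latter spanning more than its 60 bases in the genome, and the last at chr5:100462651-100462710. The first read -1.42, -1.42, -1.52 and -1.51 in Control and 0.04, 0.13, 0.23 and 0.73 in IRI (1.75 ± 0.14, adjusted p = 2.99e-08). The second rose by 1.73 ± 0.11 (adjusted p = 1.89e-09). The downstream probe read 1.16, 0.87, 0.85 and 0.81 against 1.20, 1.10, 1.18 and 0.86, which overlap, and its change of 0.17 ± 0.39 was not called (adjusted p = 0.753). Its wide error comes with 1 array, IRI+Hemin replicate 4, that read -1.17 where the other arrays of its group read 1.09 to 1.49. Against Hemin, IRI+Hemin was higher on the upstream probes by 1.37 ± 0.14 (adjusted p = 1.07e-06) and 1.23 ± 0.11 (adjusted p = 2.24e-07). On both of them all 12 arrays after ischemia lay above the 8 without it. The share of all probes that do so was not computed.

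Sfrs3 (SRp20), the smallest SR protein, was called lower as a gene in IRI (-0.35 ± 0.14, adjusted p = 0.038). Its probe for the reference transcript, at chr17:29180193-29180252, read -1.55, -0.98, -1.39 and -1.34 in Control and -1.74, -1.79, -2.14 and -2.04 in IRI and fell by 0.61 on the log2 scale (adjusted p = 0.00306). The probe for a cDNA clone, at chr17:29176941-29177000 further upstream on the plus strand, read -3.75, -5.20, -3.99 and -4.07 in Control and -3.37, -3.50, -3.39 and -3.24 in IRI and rose by 0.88 ± 0.32 (adjusted p = 0.0302). That probe was dim, and not above background on every array. With normexp background correction neither probe was called (-0.16 and 0.34, adjusted p = 0.581 and 0.254). The value for the gene changed sign with normexp background correction (0.04) and with the mean of log2 values (0.13). Counting only probes above background on all arrays compared, which leaves Sfrs3 out, 2 of 41 members had probes called in opposite directions in IRI, Sfrs7 and Hnrnpul1, beside 3.67% of 4986 gene names with several such probes. Hnrnpul1 rose by 0.72 ± 0.12 on the probe for its transcript variant 2 (adjusted p = 0.000101) and fell by 0.50 on the probe for variant 1 (adjusted p = 0.0232). Its brightest probe changed by 0.20 ± 0.17 (adjusted p = 0.362).

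**Figure D3:**
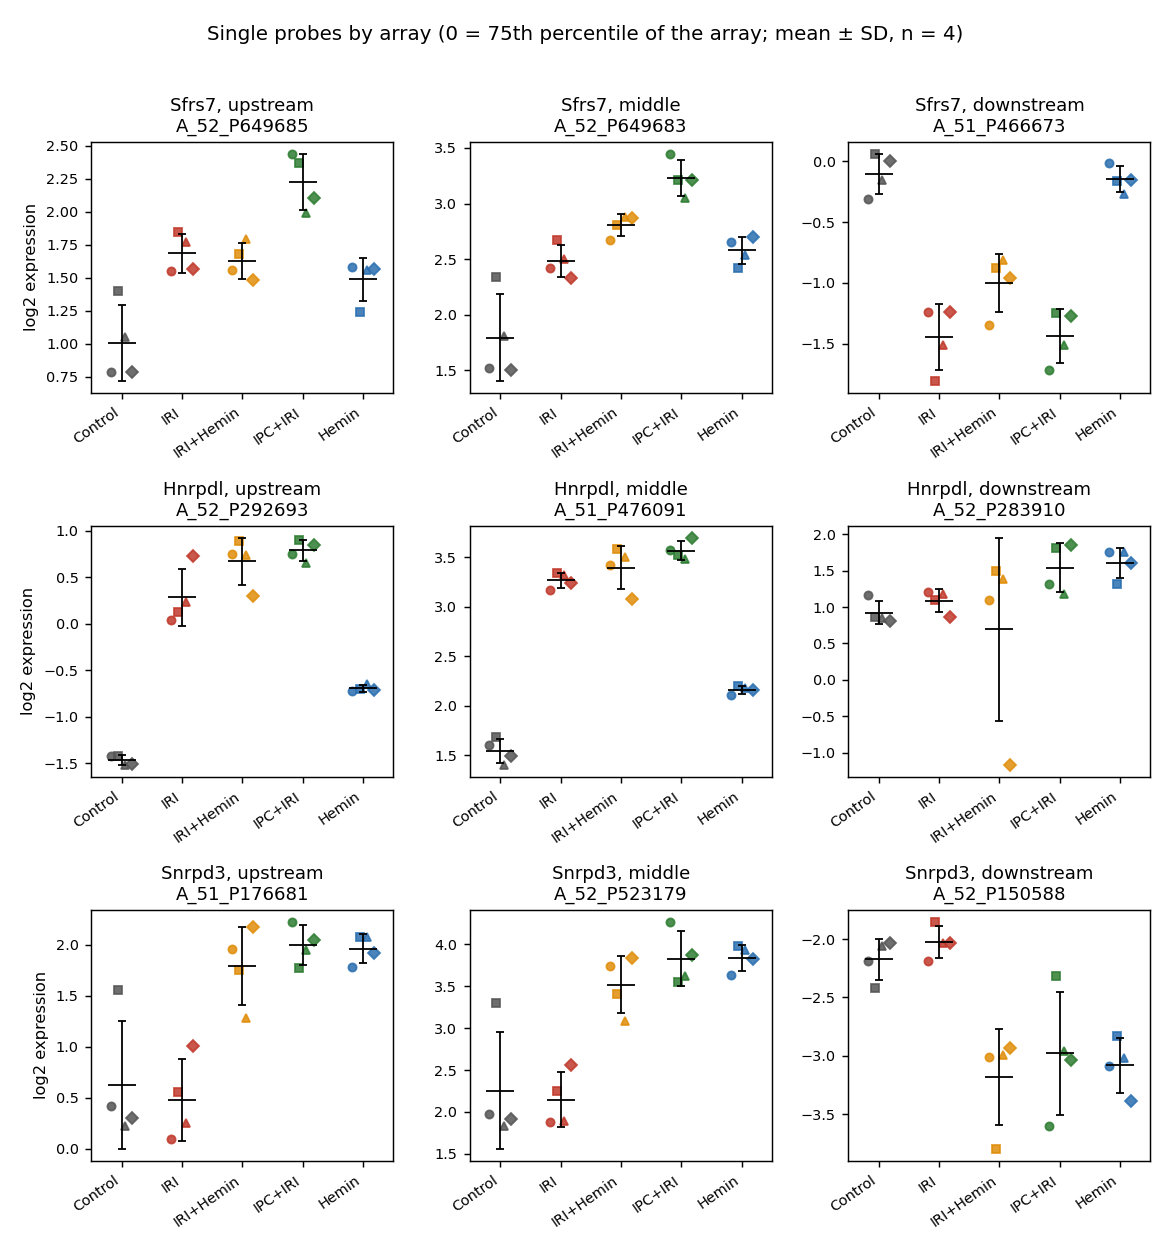
Log2 expression (vertical axis, scale set for each panel; 0 is the 75th percentile of the array) of single probes of Sfrs7, Hnrpdl and Snrpd3, from upstream to downstream in the transcript; each symbol is an array and the bars give the mean ± SD of 4. The downstream Sfrs7 probe lies between -1.81 and -0.81 in the 3 groups with ischemia and between -0.31 and 0.06 in the 2 without.

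IRI+Hemin against Hemin gives the effect of ischemia in hemin-treated kidneys and shares no array with IRI against Control. Its groups were scanned on different days. Here 13 members were higher and 12 lower, at a background of 16.5% and 27.9%, and the median member changed by -0.02 against -0.15 for all genes tested. None changed at least 2-fold, where 5.79% of all genes rose and 8.5% fell by that much. Without scaling between arrays 7 members were called, 2 higher and 5 lower. Of the 18 members higher in IRI against Control, 11 (61.1%, or 84.6% of the 13) were higher here as well, of the 6 lower members 4 (66.7%, or 33.3% of the 12) were lower, and 0 members were called in opposite directions. The same figures over all genes tested in both were 65.8% and 67.8% for higher and 57% and 66.8% for lower genes. Across the 71 members the log2 changes correlated with r = 0.65 (rho = 0.64), against r = 0.73 over all 17281 genes, and 52 members (73.2%) had the same sign against 78% of all genes. These correlations run across genes, which are not independent replicates. The genes that moved in both were Hnrpdl, Sfrs5, Sf3b3, Hnrnpd, Hnrnpa1, Snrpd1, Sfrs2, Sfrs15, Sfrs4, Hnrnpu and Sfrs14 upward and Sfrs18, Hnrnph3, Sfrs1 and Sfrs3 downward. Of these, Sfrs3 lost its call in 9 of 19 alternatives and changed sign in 2 in IRI against Control, and lost it in 4 and changed sign in 1 in IRI+Hemin against Hemin. Hnrnpa1 lost its call in 6 of 19 and changed sign in 1 (-0.01) in IRI+Hemin against Hemin, and Sfrs2 lost its call in 2 of 19 in IRI against Control (down to 0.15). Hnrnpu lost its call in 4 of 19 and changed sign in 1 (-0.04) with the deposited values in IRI+Hemin against Hemin, and Snrpd1 lost it in 3 of 19 there. Sfrs15 and Sfrs4 each lost the call in 3 of 19 in both comparisons, with Sfrs15 down to 0.12 in IRI+Hemin against Hemin. Sfrs14 lost its call in 2 of 19 in IRI+Hemin against Hemin.

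In the hemin-treated pair Hnrpdl read 2.28, 2.47, 2.38 and 1.76 after ischemia and 1.46, 1.36, 1.51 and 1.44 without, a rise of 0.78 ± 0.12 (adjusted p = 0.000103). Sfrs5 rose by 0.84 ± 0.17 (adjusted p = 0.000821), Sf3b3 by 0.65 ± 0.10 (adjusted p = 7.16e-05, with 0.05 ± 0.14 on the probe for the reference transcript) and Hnrnpd by 0.62 ± 0.11 (adjusted p = 0.000373). Sfrs1 read 0.76, 0.85, 0.92 and 1.22 against 1.69, 1.62, 1.56 and 1.68 in Hemin, which do not overlap, and fell by 0.70 on the log2 scale (adjusted p = 0.000101). Sfrs18 fell by 0.61 (adjusted p = 0.000257) and Hnrnph3 by 0.64 (adjusted p = 0.00384). The Sfrs18 call was lost in 2 of 19 alternatives, with values from -1.06 to -0.24, and 1 of its 2 probes gave 0.23 and was not called (adjusted p = 0.391). Hnrnpa0, an hnRNP that binds AU-rich elements, had the largest rise of this comparison. It read 0.41, 0.62, 0.40 and 0.80 in IRI+Hemin and -0.49, -0.21, -0.29 and -0.21 in Hemin (0.86 ± 0.18, adjusted p = 0.00126), and did not change in mean between IRI and Control (0.00 ± 0.18, adjusted p = 0.993). Prpf18, Hnrnpm and Sfrs6 fell by 0.54 (adjusted p = 0.00179), 0.55 (adjusted p = 0.00551) and 0.48 (adjusted p = 0.00412), the last on 1 of its 2 probes (-0.83 ± 0.18, adjusted p = 0.00133, against 0.14 on the other). Of the 22 called members tried in the alternatives, 5 kept their call in all 19.

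**Figure D4:**
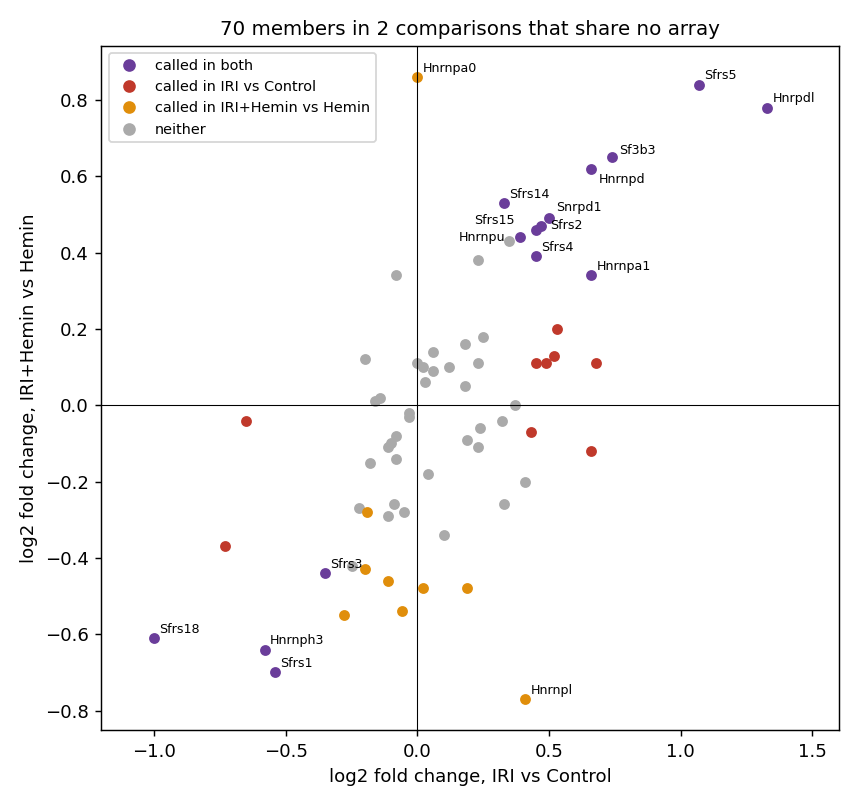
Log2 fold change of 70 of the 71 members in IRI against Control (horizontal axis) and in IRI+Hemin against Hemin (vertical axis), which share no array. Purple points are the 15 members called in both, each with the same sign on both axes, and Hnrnpl lies at 0.41 and -0.77.

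The difference between these effects of ischemia was tested directly as an interaction. IRI+Hemin and Hemin were scanned on different days, so scan day and treatment cannot be told apart in it. No member was called higher and 2 were called lower, Hnrnpl and Prpf38b, at a background of 5.83% higher and 1.96% lower genes, and at an unadjusted p below 0.05 there were 4 and 11 members, beside 13.8% and 8.52% of all genes. Hnrnpl, which binds CA repeats, read 2.97, 2.59, 3.04 and 3.18 in Control, 3.47, 3.67, 3.63 and 2.66 in IRI, 1.76, 1.57, 1.78 and 2.08 in Hemin and 1.13, 1.07, 1.06 and 0.86 in IRI+Hemin. It was lower after ischemia in hemin-treated kidneys (-0.77 ± 0.19, adjusted p = 0.00423) and not called in untreated ones (0.41 ± 0.19, adjusted p = 0.0832), and the difference was -1.18 ± 0.28 (adjusted p = 0.0137). Over the 27 alternatives tried for it this difference lay between -1.41 and -1.03 with adjusted p from 0.000911 to 0.0769. Hnrnpl has 1 probe, at chr7:29607045-29607104. Prpf38b read -0.94, -0.63, -0.54 and -0.76 in Control, -0.39, 0.15, 0.07 and -0.05 in IRI, -0.36, -0.50, -0.58 and -0.61 in Hemin and -0.84, -0.28, -0.41 and -1.02 in IRI+Hemin. Its difference was -0.78 ± 0.22 (adjusted p = 0.033) and was lost in 15 of 27 alternatives, with adjusted p up to 0.432. It rested on 1 of its 2 probes, which gave -1.36 ± 0.19 (adjusted p = 0.000355), while the other gave 0.58 ± 0.47 and was not called (adjusted p = 0.508). Hnrnpa0 came next, at 0.86 ± 0.26 (adjusted p = 0.0519).

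Hemin against Control asks what the drug did without surgery. There were 29 members higher and 5 lower, against 18.5% and 17.6% of all genes, with a median of 0.23 against 0.06. At least 2-fold changes were seen in 2 members upward (background 2.19%) and 1 downward (background 5.98%). The snRNP proteins held 8 higher and 1 lower of 12, the hnRNPs 8 and 1 of 19, the PRPF genes 5 and 0 of 13, the SR group 5 and 2 of 19 and the SF3A/SF3B group 3 and 1 of 8. Without scaling 49 were higher and 0 lower, and the median of all genes was then 0.62. Hnrnph3 read 3.74, 3.54, 3.87 and 3.76 in Hemin and was higher than Control by 1.14 ± 0.16, or 2.20-fold (adjusted p = 0.000121). Sfrs2 read 2.15, 2.21, 2.10 and 2.23 in Hemin, below every Control array, and was lower by 0.63 on the log2 scale (-0.63 ± 0.12, adjusted p = 0.000708), as was Sfrs4 (-0.62 ± 0.13, adjusted p = 0.00132). Both calls were lost without scaling, where each difference was -0.06. In IRI, against the same Control arrays, these 3 genes differed by -0.58, 0.47 and 0.45. Prpf19, a ubiquitin ligase that helps to activate the spliceosome, was higher by 0.93 ± 0.25 (adjusted p = 0.00776). Hemin and Control were scanned on different days, which cannot be told apart from the treatment.

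IPC+IRI against Control had 34 members higher and 9 lower, against 23.3% and 32.7% of all genes, with a median of 0.26 against -0.09, and 8 members rose (background 7.97%) and 2 fell (background 14.1%) at least 2-fold. Hnrpdl was at 2.42, 2.49, 2.32 and 2.62, higher by 1.68 ± 0.12, or 3.20-fold (adjusted p = 2.15e-08), which is to be read beside 1.33 for IRI against the same Control arrays. Sfrs5 was higher by 1.59 ± 0.17 (adjusted p = 1.12e-06) and Sf3b3 by 1.38 ± 0.10 (adjusted p = 1.97e-08), beside 1.07 and 0.74 in IRI. On the Sf3b3 probe for the reference transcript the difference was 0.12 ± 0.13 (adjusted p = 0.483). Sfrs1 and Sfrs18, at -0.54 and -1 in IRI, differed from Control by -0.30 ± 0.11 (adjusted p = 0.0331) and -0.47 ± 0.11 (adjusted p = 0.00133). The Sfrs1 call was lost in 10 of 19 alternatives and its value was 0.14 without scaling, and the Sfrs18 call was lost in 3 of 19 (-0.04 without scaling).

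Preconditioning before ischemia was then compared with ischemia alone. In IPC+IRI against IRI 29 members were higher and 11 lower, against 26.3% and 17.9% of all genes, with a median of 0.21 against 0.09, and 5 were higher (background 7.18%) and 2 lower (background 4.4%) at least 2-fold. Sf3b3 was higher by 0.64 ± 0.10 (adjusted p = 1e-04). Its probes for the clone were higher by 1.24 ± 0.19 (adjusted p = 6.11e-05) and 0.66 ± 0.14 (adjusted p = 0.000875), and the probe for the reference transcript was not (-0.16 ± 0.13, adjusted p = 0.332). Hnrpdl was higher by 0.35 ± 0.12 (adjusted p = 0.0313), a call lost in 10 of 19 alternatives, while Hnrnpd was lower by 0.46 (-0.46 ± 0.11, adjusted p = 0.00336), its arrays at 2.74, 2.70, 2.36 and 2.63 lying below all 4 of IRI; this call was lost in 3 of 19 (-0.15 without scaling). Sfrs2, at 2.55, 2.46, 2.26 and 2.50, was lower than IRI by 0.83 on the log2 scale (-0.83 ± 0.12, adjusted p = 3.64e-05). Sfrs18 was higher by 0.53 ± 0.11 (adjusted p = 0.000874) and Hnrnph3 by 1.39 ± 0.16 (adjusted p = 8.75e-06), and Prpf8 was lower (-0.58 ± 0.15, adjusted p = 0.00364). The Prpf8 call was lost in 2 of 19 alternatives (-0.27 without scaling, adjusted p = 0.473) and the Sfrs18 call in 2 (0.24 with the deposited values). Probes of 13 of 41 members were called in opposite directions in this comparison, beside 10.8% of 5052 gene names with several probes; the number of probes per gene was not matched.

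Hemin before ischemia against ischemia alone gave 21 members higher and 11 lower, against 26.3% and 18.1% of all genes, with a median of 0.14 against 0.08, and 6 were higher (background 7.45%) and 2 lower (background 5.04%) at least 2-fold. Hnrnpl had the largest change of any member in any comparison (-2.33 ± 0.19, 5.02-fold, adjusted p = 5.95e-07). Hnrnpa0 was higher by 1.22 ± 0.18 (adjusted p = 6.47e-05), Hnrnph3 by 1.08 ± 0.16 (adjusted p = 6.14e-05) and Sfrs12ip1 by 1.02 ± 0.16 (adjusted p = 0.000101). Sfrs2ip was lower (-0.88 ± 0.20, adjusted p = 0.00175), with arrays at 1.29, 0.28, 1.42 and 0.26. This call was lost in 3 of 19 alternatives, down to -0.13 with the mean of log2 values (adjusted p = 0.49), and its 2 probes were called in opposite directions (-0.93 ± 0.21, adjusted p = 0.00155, and 0.67 ± 0.21, adjusted p = 0.0135). Replicates 2 and 4 of IRI+Hemin both lay below replicates 1 and 3 for 12 of 71 members, Hnrnph1, Prpf38a, Sf3a3, Hnrnpab and Prpf3 among them, and both lay above them for 14, beside 11.9% and 26.3% of the 16273 genes above background on these arrays. Hnrpdl, Hnrnpd, Hnrnpa1 and Sfrs1, which differed between IRI and Control, lay within 0.10 of IRI and were not called, though single probes of 3 of them were. For Hnrnpa1, 1 probe was higher by 0.59 ± 0.15 (adjusted p = 0.0031) and 1 lower (-1.18 ± 0.14, adjusted p = 5.82e-06). For Sfrs1 the dimmer probe, not above background on every array, was lower (-1.58 ± 0.25, adjusted p = 8.65e-05), and for Hnrpdl the upstream probe was higher by 0.39 ± 0.14 (adjusted p = 0.0288), a call lost in 7 of 11 alternatives (adjusted p up to 0.0987). Probes of 11 of 41 members were called in opposite directions here, beside 10.6% of 4959 gene names. The adjusted p for Sfrs5 (0.40 ± 0.17) was 0.0644.

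Some members separated the groups scanned on the first day from those scanned later. All 12 later arrays were above all 8 arrays of the first day for 6 of 71 members, Hnrnpa3, Hnrnpab, Prpf31, Sf3b5, Snrpa1 and Snrpe, where 1.82% of all genes did so, and below them for 3, Hnrnpl, Sfrs6 and Snrpn, where 2.68% did. Snrpe, an Sm ring protein, read 0.60, 0.73, 0.32 and 0.39 in Control, 0.16, 0.52, 0.40 and 0.14 in IRI, 0.89, 0.94, 0.86 and 1.10 in IRI+Hemin, 1.54, 1.17, 1.24 and 1.34 in IPC+IRI and 1.65, 1.28, 1.37 and 1.23 in Hemin. Snrpn ran from -0.63 to 0.07 on the first day and from -1.56 to -1.05 later. Its change was between -0.96 and -1.34 in the 4 comparisons of a later group with Control or IRI, and 0.19 and -0.09 in IRI against Control and IRI+Hemin against Hemin. For 7 of these 9 members Control replicate 2 was the array of the first day nearest to the later ones, as it was for 480 (61.3%) of all 783 genes that separated in this way. The part of the scan day, of ribosomal RNA and of the treatments in these levels cannot be told apart. Snrpd2 and Snrpd3, both Sm ring proteins, overlapped at that array, which read 1.91 and 2.11 where the other Control arrays read 1.00 to 1.07 and 0.72 to 0.87.

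**Figure D5:**
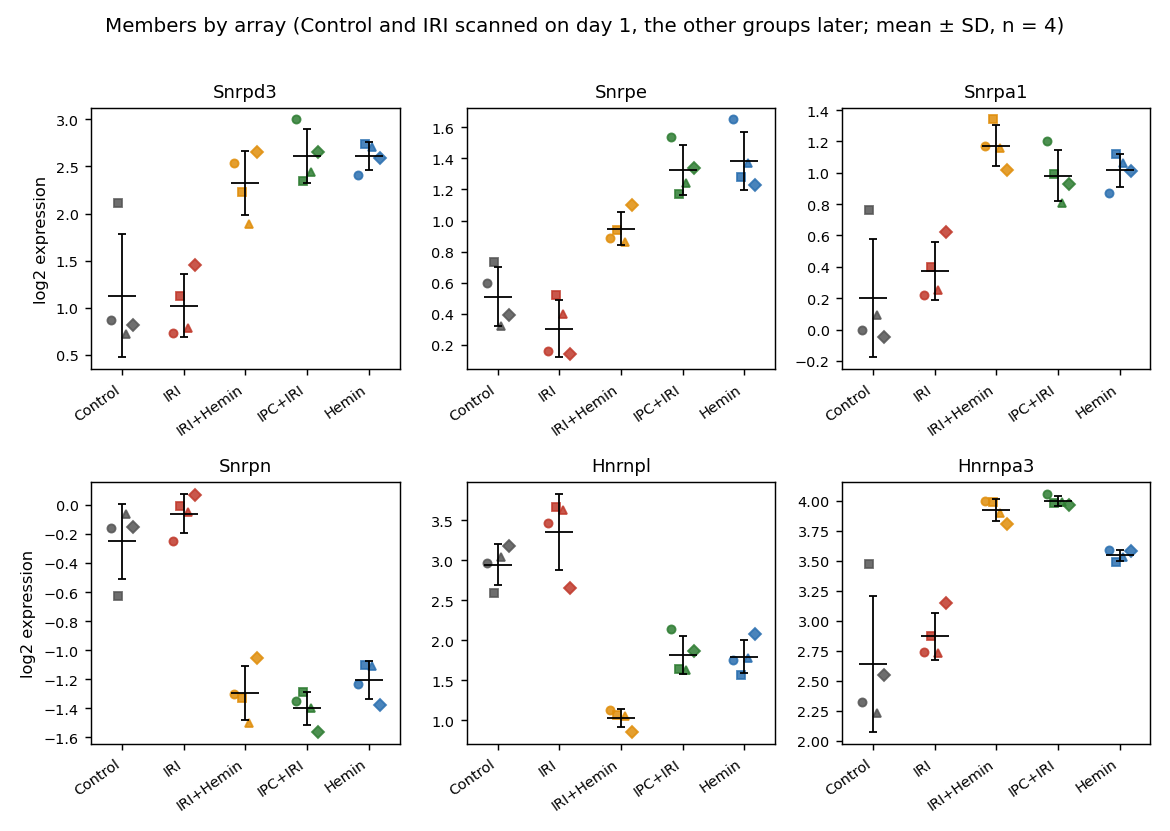
Log2 expression (vertical axis, scale set for each panel; 0 is the 75th percentile of the array) of 6 members by group; each symbol is an array and the bars give the mean ± SD of 4. Control and IRI were scanned on the first day; Snrpe, Snrpa1 and Hnrnpa3 are higher and Snrpn and Hnrnpl lower on all arrays scanned later, and the highest Control symbol for Snrpd3 (2.11) is Control replicate 2.

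In the reported fit Snrpd3 differed most among the snRNP proteins, by 1.48 ± 0.26 in Hemin (adjusted p = 0.000492) and in IPC+IRI (adjusted p = 0.000133) against Control and by 1.6 ± 0.26 in IPC+IRI (adjusted p = 0.000139) and 1.31 ± 0.26 in IRI+Hemin (adjusted p = 0.00069) against IRI. Over the 19 alternatives Snrpd3 kept these calls, but the differences fell as low as 0.67, 0.72, 0.75 and 0.51 in this order. Its 3 probes on the plus strand of chromosome 10 are shown because they too moved apart.
Snrpd3 A_51_P176681: atgttaaagagcatgaaaAATAAAaaccaa
Snrpd3 A_52_P523179: gtgggatgggacgtgggaacatcttccaga
Snrpd3 A_52_P150588: ctccagcttttagctcatcacttctttcaa
The first, at chr10:74995039-74995098, and the second, at chr10:74998027-74998086, belong to the reference transcript and rose in IPC+IRI relative to Control by 1.38 ± 0.26 (adjusted p = 0.000251) and 1.57 ± 0.27 (adjusted p = 0.000109). The third, at chr10:74999676-74999735, belongs to a cDNA clone and was lower (-0.80 ± 0.22, adjusted p = 0.00539). Its call was lost in 1 of 11 alternatives, with values from -1.02 to -0.37 and adjusted p up to 0.392. Between IRI and Control, scanned on the same day, the 3 probes changed by -0.14 ± 0.26, -0.11 ± 0.27 and 0.15 ± 0.22 and none was called.

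Other genes of the splicing pathway that the name rule leaves out were read from the same fit. The array held 103 such genes and 101 of them entered the tests; IRI against Control gave 32 higher and 11 lower (median 0.07), beside 17.1% and 33.9% of all genes, with 15 higher and 17 lower in IRI+Hemin against Hemin (median 0.04), beside 16.5% and 27.9%. Factors of the acceptor splice site and others that work with U2 had 7 higher and 1 lower of 12 in IRI, the exon junction complex and SR-like cofactors 5 higher and 0 lower of 11, and the SR protein kinases 4 higher and 1 lower of 8. The LSm proteins, relatives of the Sm ring, had 1 higher and 2 lower of 10 in IRI, and 7 higher and 1 lower in Hemin against Control, across scan days, where 18.5% and 17.6% of all genes were called. The SMN complex, which loads the Sm ring, had 2 higher and 1 lower of 10 in IRI, the tri-snRNP and the complexes that join it 3 and 1 of 18, and the regulators of alternative splicing 6 and 2 of 21.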

How the data were processed

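Kidney RNA was hybridised to 20 1-colour (Cy3) whole-genome arrays. The authors deposited, per array, scanner output from Agilent Feature Extraction 9.5.3.1 with the processed intensity of each spot (background-subtracted), and a log2 table of the same intensity in which 18.1% of values are blank. Probe positions (mm9) come from the file headers and annotation; no genome was used, so exon or UTR annotation is not given.

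Spots marked non-uniform or outlier were removed, and intensities were divided by the array's 75th percentile; probes of a gene name were averaged and log2 was taken. A comparison of scan days required 6 of the 8 first or 9 of the 12 later arrays above background. A gene was tested with at most 1 missing value and at least 3 of 4 arrays of a group well above background. limma 3.58.1 (R 4.3.3, data.table version 1.17.8) fitted 5 group means over all 20 arrays (15 residual degrees of freedom), with Benjamini-Hochberg adjustment over all genes tested; a call is adjusted p below 0.05. The same fit was made over single probes. The script was tested on simulated data. The number of arrays, 4 per group, limits the precision. Replicates carry a number and no animal identifier in the labels, so p-values measure the spread between these arrays. SAM, named in the methods, was not run, since it rests on permuting samples.

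Members and lists were chosen with earlier results of these data known. Named members were, per comparison, up to 6 largest rises and 6 largest falls among those called and above background on all arrays compared, a fixed list (Snrpa, Snrpb, Snrpn, Sfrs1, Sfrs2, Sfrs3, Hnrnpa1, Hnrnpk, Sf3b1, Prpf8; Snrp70 was not matched), members with probes called in opposite directions, and members past the interaction threshold; further members were named after their values were seen. 1 member is counted but not reported individually here. Alternatives were normexp (offset 50), no scaling, quantile, scaling by probes above background on all arrays, mean of log2, brightest probe, the deposited table, 2 filters, fewer groups, a replicate block and leaving out each array. Symbols were matched to RefSeq (72 of 72).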

Additional observations from a re-analysis of the deposited data

Results flagged for a closer look

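Dixon's criterion (the gap to the nearest array as a share of the range) was applied to 240 groups of 4 arrays (members named above or in the same rule, 5 groups each). The genes share arrays and some were chosen by their values, so the count was not set against chance. In 11 of these groups an array stood apart from the other 3. Control replicate 2 was that array 6 times: Hnrnph3 (3.1, others 2.39 to 2.46), Hnrnpk (4.67, others 4.15 to 4.24), Sfrs12ip1 (0.42, others -0.37 to -0.25), Snrpd1 (-0.18, others -0.86 to -0.80), Snrpd2 (1.91, others 1.00 to 1.07) and Snrpd3 (2.11, others 0.72 to 0.87). This array also read 7.74 for 18S ribosomal RNA against 4.55 to 5.14 on the other Control arrays. IRI+Hemin replicate 4 stood below its group for Sf3b1 (-0.97, others 0.14 to 0.24) and Sfrs6 (1.05, others 1.67 to 1.78). The remaining cases were small, with Sf3a2 at -2.94 in IRI replicate 2 (others -2.77 to -2.74), Snrpd1 at -0.30 in IRI replicate 1 (others -0.12 to -0.10) and Sfrs6 at 1.98 in Hemin replicate 1 (others 2.04 to 2.05).

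In the interaction test 2 of 71 members were called lower (background 1.96%), Hnrnpl at -1.18 and Prpf38b at -0.78 on the log2 scale. IRI+Hemin and Hemin were scanned on different days and each group had its own slide, which cannot be told apart from the treatments. For Hnrnpl the call was lost in 2 of 27 alternatives. For Prpf38b the call was lost in 15 of 27 alternatives, and its 2 probes gave -1.36 and 0.58.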

How the results depend on the processing

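The number of members called moved by more than 1.5 times in few alternatives. In IRI against Control, 24 became 12 without scaling and 15 with normexp, and in IRI+Hemin against Hemin 25 became 7 without scaling. For the interaction, 2 became 4 with genes above background on all arrays compared, 1 without a filter, 1 with only the groups compared in the fit, and 0 without scaling and with normexp. Leaving out each array in turn gave 22 to 29 in IRI against Control, 41 to 43 in IPC+IRI against Control, 28 to 37 in Hemin against Control, 36 to 39 in IPC+IRI against IRI, 29 to 33 in IRI+Hemin against IRI, 22 to 25 in IRI+Hemin against Hemin and 1 to 5 in the interaction. Without Control replicate 2, 29 members were called in IRI (24 higher) and 37 in Hemin against Control.

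Without scaling the median of all genes moved to 0.62 in Hemin against Control, 0.35 in IPC+IRI against Control, 0.41 in IPC+IRI against IRI, 0.45 in IRI+Hemin against IRI and -0.23 in IRI+Hemin against Hemin, and the members split into 49 and 0, 43 and 2, 31 and 3, 29 and 3, and 2 and 5 higher and lower. With the deposited table the split was 8 and 10 in IRI against Control, 8 and 15 in IRI+Hemin against Hemin and 28 and 5 in IRI+Hemin against IRI.

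Some members called in the reported fit or in the alternative changed sign between them. With the mean of log2 values Sfrs3 became 0.13 in IRI against Control, 0.18 in IRI+Hemin against Hemin, -0.10 in Hemin against Control and -0.17 in IPC+IRI against IRI; Snrpa became -0.37 in Hemin and -0.29 in IPC+IRI against Control, -0.17 in IPC+IRI and -0.36 in IRI+Hemin against IRI; Sfrs1 became -0.54 in Hemin against Control and -0.38 in IPC+IRI against IRI; Sfrs2ip became 0.05 in IPC+IRI and Hnrnpk -0.15 in IRI+Hemin against IRI. With the brightest probe Prpf39 became -0.38 in IPC+IRI and Prpf4b -0.47 in IRI+Hemin against IRI, and Hnrnpa1 -0.01 in IRI+Hemin against Hemin. With normexp Sfrs3 became 0.04 in IRI against Control, -0.03 in Hemin against Control and -0.15 in IPC+IRI against IRI. Without scaling Sf3a2 became 0.06 in Hemin, and Sfrs1 0.14 and Sfrs2 0.08 in IPC+IRI, against Control, and Snrpb 0.00 in IPC+IRI against IRI. With the deposited table Hnrnpk became -1.11 in Hemin and -0.95 in IPC+IRI against Control, Snrpd1 -0.06 and Hnrnpu -0.23 in IRI against Control, and Hnrnpu -0.04 in IRI+Hemin against Hemin. Of 120 called values examined in this way, some of them chosen after the data were seen, 41 kept their call in every alternative. The cause was not tested.

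With the replicate number as a block, 21 members were called in IRI against Control, 34 in IPC+IRI against Control, 26 in Hemin against Control, 27 in IPC+IRI against IRI, 23 in IRI+Hemin against IRI, 22 in IRI+Hemin against Hemin and 2 in the interaction. Arrays of the same number did not deviate together in most comparisons (r from -0.32 to 0.15 over 14527 genes). In IRI against Control each of the 4 correlated best with its own number (r 0.05 to 0.15), where 0 or 1 of 4 did so in the other comparisons. Whether a factor that the labels do not name is shared by these arrays was not tested. Slide as a random block could not be fitted, because each slide holds 1 group. Signals near background, as for Sfrs3, limit what dim probes show.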
